A study of Mus musculus with 4 samples.

Results

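Cytosolic ribosomal proteins are the protein parts of the ribosomes that translate messenger RNA in the cytosol. They were taken here as the genes whose symbol is Rpl or Rps with a number, allowing the endings a, x, y and l, together with Rpsa, Rplp0, Rplp1 and Rplp2, leaving out symbols marked as pseudogenes by -ps. That gave 85 of the 35857 genes in the deposited tables, 33 of the small subunit (Rps and Rpsa) and 52 of the large subunit (Rpl and Rplp). The cells were glial progenitors formed by neural stem cells from the cerebral cortex of embryonic C57BL/6 mice, taken 24 hr after glial differentiation was induced. There were 2 libraries from cells of genotype Qk-/-, labelled Qk_KO, and 2 from wild type cells, labelled control. Qk encodes Quaking, an RNA-binding protein of glia. The labels do not say if replicates were cultured separately, so the p-values measure the spread between these libraries, which may be partly technical. The sources used here give neither the age of the embryos nor the way Qk was removed.

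A ribosome holds a small subunit, which decodes the messenger RNA, and a large subunit, which joins amino acids. Nearly every ribosomal protein is present in a single copy per ribosome, and growing and dividing cells spend a large part of their messenger RNA on these proteins. The messages of ribosomal proteins start with a short run of C and T bases, the terminal oligopyrimidine (TOP) tract, through which mTOR and LARP1 control their translation and stability, and their genes respond to MYC. In the developing brain, neural progenitors are known for high ribosome production, which declines as cells mature.

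The tract and a second promoter element could be looked for in sequence. RefSeq promoter windows of GRCm38.p6, reaching from 250 bases before to 50 bases after each annotated start, were found for 64 of the 85 genes, with 76 starts. The letters CTTTC, a piece typical of TOP tracts, lay on the transcribed strand within 25 bases of a start in 19 of these 64 genes (29.7%), against 7.87% of all 27025 genes with a window. On the other strand the same letters were found in 7 of 64 (10.9%), against 7.07% of all genes. The letters CTTCC were found on the transcribed strand in 19 of 64 (29.7%, against 12.4% of all) and on the other strand in 15 of 64 (23.4%, against 13.9%). The letters CCGGAAG, the core bound by ETS factors such as GABP, occurred on either strand of the 300-base window in 26 of 64 (40.6%), against 9.93% of all genes. Read on the opposite strand this core holds CTTCC, so those searches overlap. TATAAA in the 40 bases before the start was found in 1 of 64 genes (1.56%, against 2.78% of all). A match describes the letters in the window and is not a site shown to be used, and RefSeq starts can differ from the start used in these cells.

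Windows of 30 bases centred on the annotated start, the first transcribed base being the 16th, are shown for 8 genes picked, with their values known, from genes with larger and with smaller log2 fold changes. Rpl22, Rpl24 and Rpl27a were among the genes with the most negative fold changes in Qk_KO, Rps18 and Rpl7a were abundant, and Rpl28, Rps9 and Rplp0 had log2 fold changes of -0.10, -0.03 and 0.07. Capitals mark CTTTC or CTTCC on the transcribed strand.
Rpl22 (chr4:152325711-152325740, plus strand, the start nearer the coding sequence): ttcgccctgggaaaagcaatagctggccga
Rpl24 (chr16:55966260-55966289, plus strand): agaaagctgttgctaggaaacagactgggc
Rpl27a (chr7:109519180-109519209, plus strand): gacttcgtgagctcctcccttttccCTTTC
Rps18 (chr17:33955651-33955680, minus strand): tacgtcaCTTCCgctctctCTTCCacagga
Rpl7a (chr2:26910792-26910821, plus strand): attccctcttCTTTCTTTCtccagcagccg
Rpl28 (chr7:4792950-4792979, plus strand): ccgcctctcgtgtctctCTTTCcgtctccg
Rps9 (chr7:3704026-3704055, plus strand): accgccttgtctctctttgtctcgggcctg
Rplp0 (chr5:115559452-115559481, plus strand): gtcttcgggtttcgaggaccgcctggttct
The marked letters were in the windows of Rpl27a, Rps18, Rpl7a and Rpl28, and not in those of Rpl22, Rpl24, Rps9 and Rplp0. With 8 windows picked in this way, nothing is read from which of them hold the letters.

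Qk itself was measured at 36.1 and 43.7 TPM in the Qk_KO libraries, against 208 and 215 TPM in the control libraries, which fits the label of each of the 4 libraries. TPM, the unit of the deposited values, is the abundance of a gene's messenger RNA per length of transcript as a share of the library total. It keeps no read depth, so no counting interval can be given. Pearson's r of log2(TPM + 1) over the 13260 genes averaging 1 TPM or more was 0.978 between the Qk_KO libraries, 0.985 between the controls and 0.951 to 0.973 between groups. Of 17 neural stem cell and radial glia markers, summing to 7482 and 7250 TPM in Qk_KO, against 7351 and 7131 TPM in control, Pax6 rose, Slc1a3 and Ptprz1 fell and 14 did not pass. Sox2 stood at 239 and 208 TPM in Qk_KO, against 234 and 195 TPM in control, and the radial glia gene Fabp7 at 2354 and 3144 TPM in Qk_KO, against 3010 and 2957 TPM in control. Vim stood at 3373 and 2392 TPM in Qk_KO, against 2370 and 2346 TPM in control. Fabp7 and Vim made up most of the sums, which therefore say little about the other markers. Of the 17 log2 fold changes 5 were below 0, where 45.6% of all genes tested were, with a median of 0.16. Both Qk_KO values lay above both controls in 6 of the 17 and below in 3. Over all genes tested these shares were 33.6% and 27.5%.

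Ribosomal protein messenger RNA made up 12.99% and 13.42% of all TPM in the Qk_KO libraries, against 15.49% and 16.52% in the control libraries. As summed TPM this was 132044 ± 3017 in Qk_KO and 160043 ± 7278 in control (SD, n = 2 per group), a log2 ratio of -0.28, so the Qk_KO level was 82.5% of control. Both Qk_KO libraries lay below both control libraries, and the gap was wider than the range within either group. The small subunit genes summed to 55208 ± 902 TPM in Qk_KO and 67025 ± 3134 TPM in control, and the large subunit genes to 76836 ± 2115 TPM in Qk_KO and 93018 ± 4144 TPM in control. Both subunits were therefore lower by nearly the same factor, at 82.4% of control for the small and 82.6% for the large subunit. The summed small subunit came to 72.4% and 71.3% of the large subunit in the Qk_KO libraries, against 71.9% and 72.2% in the control libraries, and these ranges overlapped. Because the cells were measured in bulk, fewer cells of a type and less RNA per cell cannot be told apart. TPM is a share of a fixed total, so an absolute amount per cell cannot be read from it either. No p-value is given for the sums, which were chosen with earlier results of these data known. An exact permutation test of 2 against 2 libraries cannot go below 0.333.

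**Figure D1:**
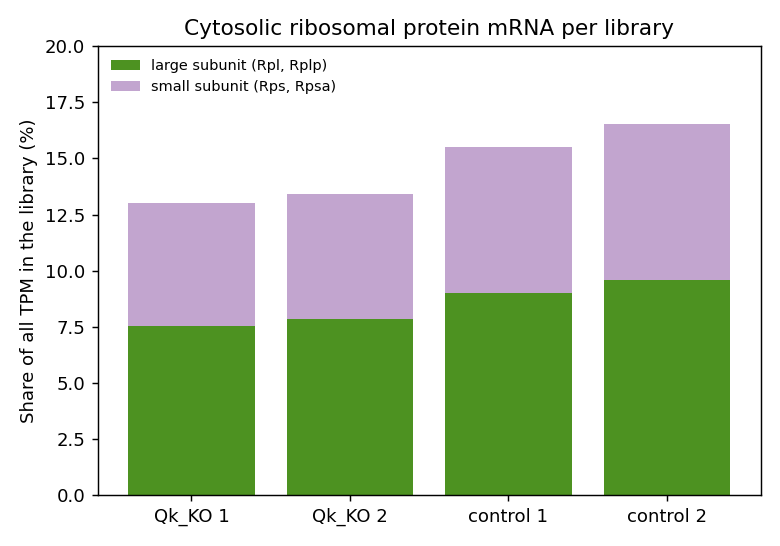
Share of all TPM, in percent, taken by large subunit genes (green) and small subunit genes (violet) in each of the 4 libraries. The bars of the Qk_KO libraries end at 12.99% and 13.42%, and those of the control libraries at 15.49% and 16.52%.

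Of the 85 genes, 81 averaged 1 TPM or more and were tested together with all 13260 such genes by limma on log2(TPM + 1). The other 4, Rpl10l, Rpl39l, Rpl3l and Rpl32l, stood below that level in both groups alike. In the fit 3 of the 81 genes passed a Benjamini-Hochberg adjusted p of 0.05, where 3.24% of all genes tested did, so the number of single-gene calls was close to the background. The genes called were Rpl22 and Rpl36, which fell, and Rps4l, which rose, while 78 did not pass. Of all genes tested, 1.42% were called lower and 1.83% higher. The direction was more uniform than the calls. Of the 81 log2 fold changes 77 were below 0 (95.1%), where 45.6% of all genes tested were, and 71 of 81 were below 0 with quantile normalization. In 67 of the 81 genes the higher Qk_KO value was below the lower control value (82.7%), where 27.5% of all genes tested did so. For 1 gene, Rps4l, both lay above, where 33.6% of all genes did, and 13 overlapped. The median log2 fold change was -0.30, with quartiles of -0.43 and -0.19, beside a median of 0.04 over all genes tested. An unadjusted p below 0.05 was reached by 47 of the 81 genes (58.0%, where 28.3% of all genes tested did so). An adjusted p between 0.05 and 0.1 was found for 28 genes, all lower in Qk_KO (34.6%, where 11.7% of all genes were in that range by limma, Benjamini-Hochberg). Genes of the ribosome vary together between libraries, so these counts are not tests over independent genes.

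The 3 calls depended on the settings: none of them passed when any of the 4 libraries was left out or when low genes were not filtered. Leaving out a library makes its group a single library that is assumed to vary like the other group, and between 4 and 148 of all genes were then called, beside 430 with every library, so these fits say little about the 3 genes themselves. Without the filter 0 of the 21835 genes tested were called. Quantile normalization moved the split of the calls to 1 lower and 1 higher, and Rpl36 then missed the threshold at a limma p of 0.0506 after Benjamini-Hochberg adjustment.

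**Figure D2:**
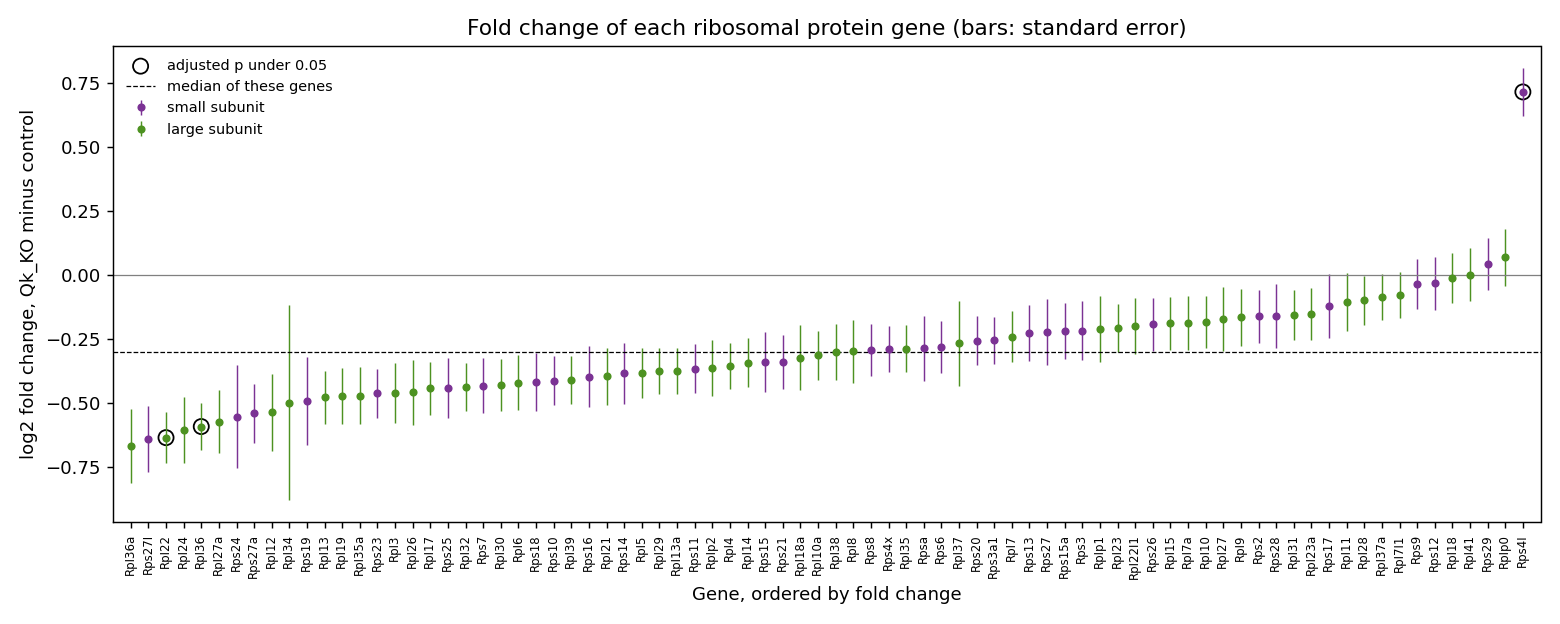
Log2 fold change (Qk_KO minus control, on the log2(TPM + 1) scale) of 80 of the 81 genes tested, ordered from low to high, with bars of 1 standard error, green for the large and violet for the small subunit. Circles mark the 3 genes past the threshold (Rpl22, Rpl36 and Rps4l), and 76 of the 80 points lie below 0.

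Among the large subunit genes, 46 of 48 tested had a log2 fold change below 0, with a median of -0.33. Rpl22, which encodes an RNA-binding protein on the outer face of the large subunit, was listed at 166 and 178 TPM in Qk_KO, against 254 and 282 TPM in control. Both Qk_KO values lay well below both controls, and the log2 fold change was -0.63 (SE 0.10, adjusted p = 0.0431 in limma, Benjamini-Hochberg). The gene lies on chromosome 4 at 152324436 to 152334082 of GRCm38. Rpl36 was listed at 1570 and 1512 TPM in Qk_KO, against 2295 and 2349 TPM in control, so replicates of a group differed by far less than the groups did. Its log2 fold change was -0.59 (SE 0.09, adjusted p = 0.0429 in limma, Benjamini-Hochberg), and it lies on chromosome 17 at 56610094 to 56614246.

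Several large subunit genes had folds of the same size without passing the threshold. Rpl36a, on the X chromosome, stood at 399 and 304 TPM in Qk_KO, against 560 and 548 TPM in control, with a log2 fold change of -0.67 and a limma p of 0.0629 after Benjamini-Hochberg adjustment. The Qk_KO replicates differed, and both lay below the controls. Rpl24, the gene mutated in the mouse Belly spot and tail strain, stood at 950 and 766 TPM in Qk_KO, against 1254 and 1342 TPM in control. Rpl27a, the gene mutated in the mouse sooty foot ataxia strain, stood at 512 and 419 TPM in Qk_KO, against 674 and 705 TPM in control. In both genes the groups stood apart. Rpl12, a protein at the base of the stalk, stood at 1418 and 1705 TPM in Qk_KO, against 2032 and 2501 TPM in control, also apart and not called.

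Rpl5 and Rpl11 form a particle with 5S ribosomal RNA and, when ribosome assembly is disturbed, bind the p53 regulator Mdm2. Rpl5 stood at 733 and 796 TPM in Qk_KO, against 960 and 1032 TPM in control, with a log2 fold change of -0.38 and a limma p of 0.0813 after Benjamini-Hochberg adjustment. Rpl11 stood at 2903 and 3326 TPM in Qk_KO, against 3256 and 3428 TPM in control. Its groups overlapped, with a log2 fold change of -0.10. Rpl3, which reaches into the catalytic centre, stood at 1866 and 2088 TPM in Qk_KO, against 2554 and 2889 TPM in control. Rpl38, a gene known in the mouse for its role in the translation of Hox messages, stood at 2015 and 1898 TPM in Qk_KO, against 2269 and 2554 TPM in control. Neither passed the test.

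The stalk of the large subunit, which recruits elongation factors, is built from Rplp0, Rplp1 and Rplp2. Together these summed to 7347 ± 514 TPM in Qk_KO and 8099 ± 228 TPM in control (SD, n = 2), at 90.7% of control. Rplp2 stood at 1672 and 1453 TPM in Qk_KO, against 2010 and 2001 TPM in control, and its groups did not overlap. Rplp0, which anchors the stalk, stood at 2634 and 3023 TPM in Qk_KO, against 2644 and 2734 TPM in control, and these values overlapped. Rplp1 lay between them, with a log2 fold change of -0.21 beside -0.36 for Rplp2 and 0.07 for Rplp0, and none of the stalk genes passed the test.

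Among the small subunit genes, 31 of 33 had a log2 fold change below 0, with a median of -0.29, and the single call was Rps4l. Rps27a, which is made as a fusion with ubiquitin, stood at 1094 and 1073 TPM in Qk_KO, against 1447 and 1715 TPM in control, and both Qk_KO values were lower. Its log2 fold change was -0.54 with a limma p of 0.0622 after Benjamini-Hochberg adjustment. Rps23, a protein of the decoding centre, stood at 1305 and 1284 TPM in Qk_KO, against 1715 and 1853 TPM in control, with a limma p of 0.059 after Benjamini-Hochberg adjustment. Rps19, the gene most often mutated in Diamond-Blackfan anaemia, stood at 1625 and 1496 TPM in Qk_KO, against 1861 and 2584 TPM in control. Here the control replicates lay further apart than in most of the genes. Rps24, also mutated in that anaemia, stood at 1141 and 750 TPM in Qk_KO, against 1363 and 1354 TPM in control, and here it was the Qk_KO replicates that lay apart. Rpsa, also known as the laminin receptor precursor, stood at 1645 and 2010 TPM in Qk_KO, against 2165 and 2271 TPM in control. Rps18, a protein of the small subunit head, stood at 3627 and 3798 TPM in Qk_KO, against 4666 and 5267 TPM in control. Neither was called, and in both genes the groups stood apart.

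A smaller set hardly differed. In 13 of the 81 genes the Qk_KO mean was over 90% of the control mean. These 13 include Rps4l, which was called higher and stood at 166% of control. In 59 genes the Qk_KO mean was between 70% and 90% of the control mean, and in 9 it was under 70%. Rpl18 stood at 3454 and 3573 TPM in Qk_KO, against 3469 and 3617 TPM in control. Rpl41, which encodes the smallest ribosomal protein, stood at 3568 and 3703 TPM in Qk_KO, against 3795 and 3474 TPM in control. Rps29 stood at 2139 and 2287 TPM in Qk_KO, against 2229 and 2069 TPM in control, and Rps9 at 2587 and 2761 TPM in Qk_KO, against 2705 and 2769 TPM in control. The values of both groups overlapped in all 4 of these genes. Rps12, Rpl37a and Rpl28 had log2 fold changes between -0.10 and -0.03. In Rpl37a and Rpl28 both Qk_KO values still lay below both controls. With another scaling the sign changed for Rpl41 and Rps29, and with quantile normalization for Rpl18, Rps9 and Rps12, all near 0. A p that misses the threshold does not show that such a gene was the same in both groups.

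Rps4l rose to 69.6 and 67.8 TPM in Qk_KO, against 40.7 and 42.2 TPM in control. Replicates of each group nearly coincided, and the log2 fold change was 0.71 (SE 0.10, adjusted p = 0.0393 in limma, Benjamini-Hochberg). RefSeq lists it as a transcribed pseudogene on chromosome 6 at 148354656 to 148355596, the only gene of the 85 with that annotation. It is a relative of Rps4x, an X-linked gene of the small subunit. Its transcript matched the Rps4x coding sequence at 79.8% identity over 792 bases. Rps4x stood at 1249 and 1262 TPM in Qk_KO, against 1511 and 1556 TPM in control, below 0 and not called (log2 fold change -0.29, adjusted p = 0.113 in limma, Benjamini-Hochberg). Rps4l amounted to 5.57% and 5.37% of Rps4x in Qk_KO, against 2.69% and 2.71% in control.

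The other related pairs were compared by their ratio in each library, as a description. Rpl22l1 encodes a near relative of Rpl22 that can take its place in the ribosome, and in mouse cells Rpl22 is known to hold its relative down. Rpl22l1 stood at 206 and 179 TPM in Qk_KO, against 211 and 232 TPM in control, with both Qk_KO values lower and no call. Rpl22l1 came to 124% and 101% of Rpl22 in Qk_KO, against 83.1% and 82.2% in control, and these ratios did not overlap. The denominator Rpl22 was called lower, with a log2 fold change of -0.63 beside -0.20 for Rpl22l1, so the ratio is no separate result. The coding sequences of this pair share 67.5% of their bases. Rps27l, a p53-responsive relative of Rps27, stood at 359 and 371 TPM in Qk_KO, against 508 and 637 TPM in control (log2 fold change -0.64, adjusted p = 0.0567 in limma, Benjamini-Hochberg). That was 21.7% and 27.1% of Rps27 in Qk_KO, against 30.1% and 34.8% in control. Rpl7l1 was close between groups, at 125 and 124 TPM in Qk_KO, against 127 and 136 TPM in control. Rpl36al, which the symbol rule leaves out, stood at 416 and 407 TPM in Qk_KO, against 527 and 555 TPM in control, in the same direction as its X-linked relative Rpl36a. The relatives known mainly from testis or muscle were absent or nearly so: Rpl10l and Rpl39l were listed at 0 in all 4 libraries, and Rpl3l at 0.11 and 0.20 TPM in Qk_KO, against 0.14 and 0 TPM in control. Rpl32l was listed at 0 and 0.18 TPM in Qk_KO, against 0.14 and 0.15 TPM in control.

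Levels spread widely as listed. In the control libraries the mean TPM ran from 41.4 for Rps4l and 62.3 for Rps6 to 5073 for Rps2, with a median of 1784 TPM. Both of these low genes are special cases, since Rps4l is listed as a pseudogene and most TPM of the Rps6 sequence are listed under a copy. The median over the Qk_KO means was 1541 TPM. In control, 63 of the 81 genes stood at 1000 TPM or more and 8 under 300 TPM. The most abundant were Rps2, Rps18, Rpl23a, Rps15 and Rpl41. Rps2 stood at 4381 and 4696 TPM in Qk_KO, against 5054 and 5091 TPM in control, and Rpl23a at 3883 and 4038 TPM in Qk_KO, against 4272 and 4538 TPM in control. Rps15 stood at 3716 and 3192 TPM in Qk_KO, against 4340 and 4375 TPM in control. In these genes the groups stood apart without a call. The 100 most abundant genes of a library included 49 and 50 of these genes in Qk_KO, against 57 and 56 in control.

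**Figure D3:**
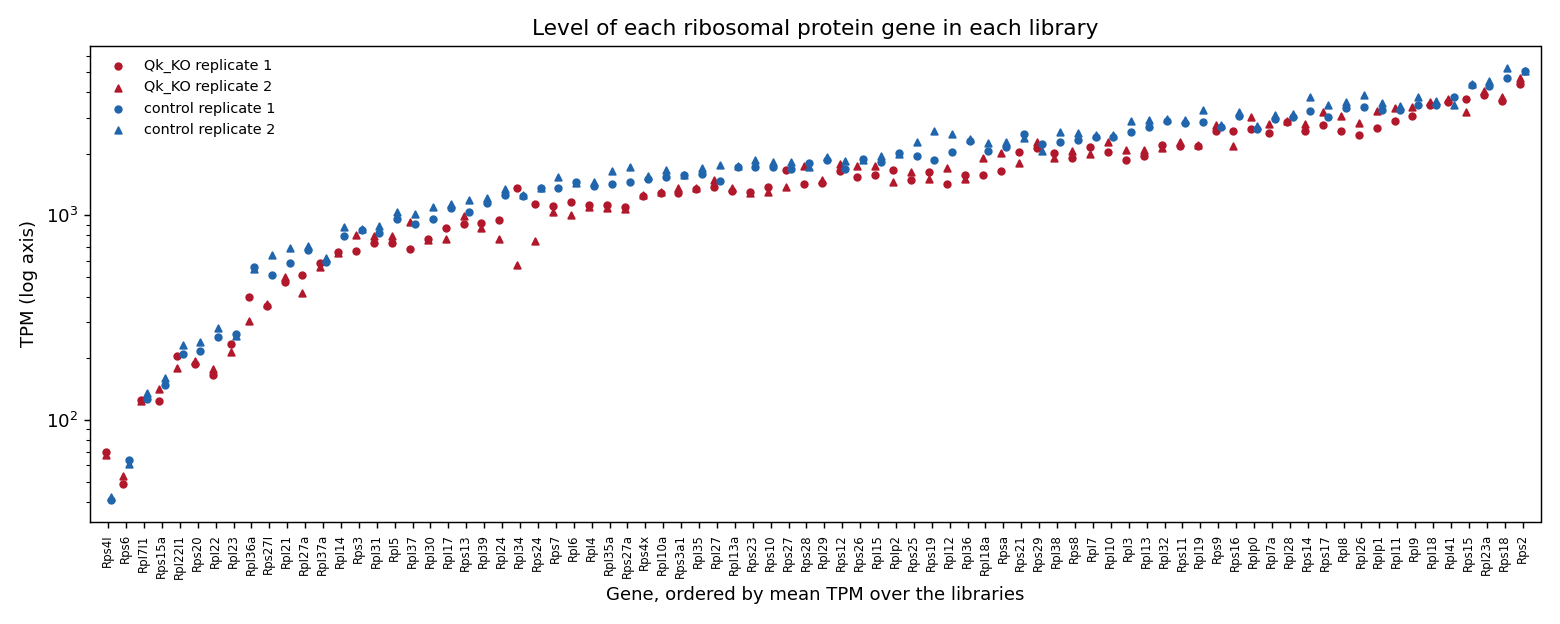
TPM of 80 of the 81 genes tested in each library on a log axis, ordered by their mean over the 4 libraries, with Qk_KO in red and control in blue, and circles and triangles for replicates 1 and 2. The red points lie below the blue ones for most genes, Rps4l at the left end lies the other way, and Rpl34 has 1 Qk_KO point far below the rest.

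Some of the lowest levels were those of genes with a near-identical copy in the tables. Ribosomal protein genes have many processed pseudogenes. Of the 85 genes, 20 had copies listed in the deposited data, 26 in all, by a -ps symbol or by at least 95% identity to the coding sequence, and in 9 of the 20 the copies held over 5% of the joint TPM. Rpl32l, with 96.0% identity to Rpl32, also meets this limit, but was not counted as a copy because it is itself among the 85. Rps6, whose protein is the substrate of S6 kinase, was listed at 48.8 and 53.5 TPM in Qk_KO, against 63.9 and 60.7 TPM in control. An unnamed locus (LOC105244208) with 100% identity over the Rps6 coding sequence was listed at 1567 and 1755 TPM in Qk_KO, against 2122 and 2332 TPM in control. Added together they gave 1616 and 1809 TPM in Qk_KO, against 2186 and 2393 TPM in control, a level near that of the other genes. The log2 fold change of this sum was -0.42 with a limma p of 0.0824 after Benjamini-Hochberg adjustment. Rps15a with its copies added came to 744 and 710 TPM in Qk_KO, against 959 and 994 TPM in control, of which 83.0% on average was listed under the copies. Rpl31-ps12 took nearly the same TPM as Rpl31, at 728 and 622 TPM in Qk_KO, against 697 and 772 TPM in control.

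The division between gene and copy differed between libraries for Rpl34. It was listed at 1352 and 573 TPM in Qk_KO, against 1236 and 1252 TPM in control, so Qk_KO replicate 2 alone stood low. Its copy Rpl34-ps1, with 99.4% identity over the coding sequence, was listed at 18.2 and 878 TPM in Qk_KO, against 8.62 and 5.74 TPM in control. The sums were 1371 and 1452 TPM in Qk_KO, against 1244 and 1258 TPM in control, and the log2 fold change turned to 0.17 for the sum, against -0.50 for Rpl34 as listed, with neither called. Values of single genes with such copies are therefore uncertain. With copies added, the log2 ratio of the summed level was -0.27, beside -0.28 without them, and 76 of 81 genes were still below 0.

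**Figure D4:**
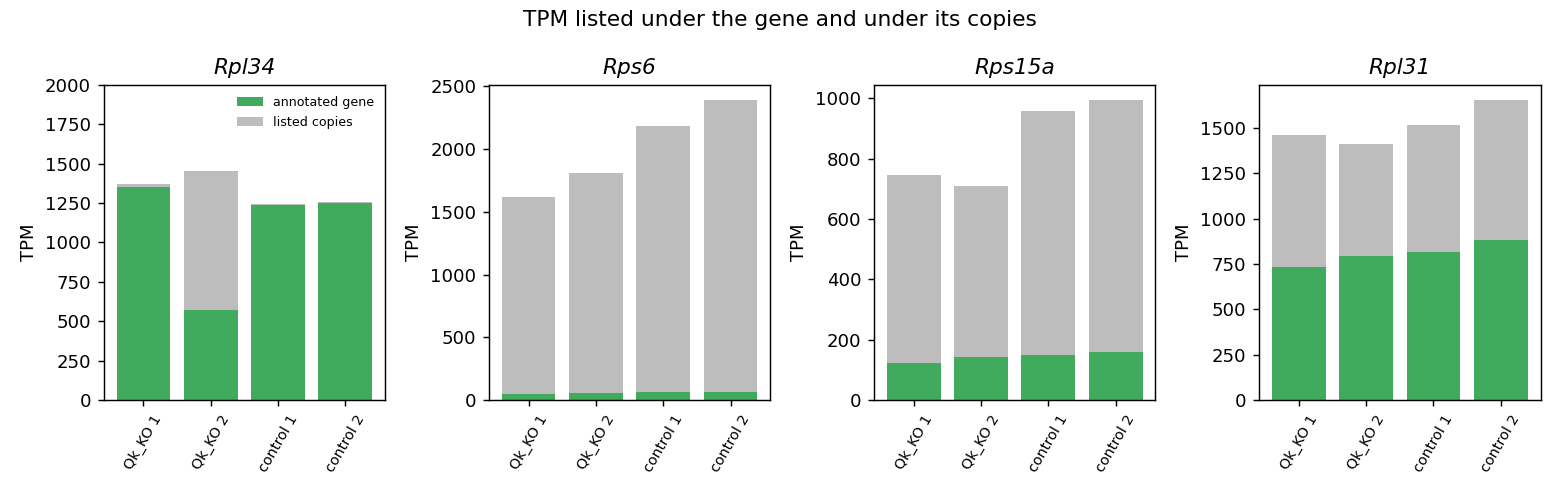
TPM listed under Rpl34, Rps6, Rps15a and Rpl31 (green) and under their copies in the deposited tables (grey) in each library. In Rpl34 the split differs in Qk_KO replicate 2 alone, while in Rps6 and Rps15a the copies hold most of the TPM in all 4 libraries.

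Other properties were compared across genes as a description. The genes tested had a median transcript length of 712 bases and a median GC content of 51.9%, beside 2244 bases and 50.9% for the other genes tested. The 2206 other genes with transcripts of up to 1000 bases had a median log2 fold change of 0.02. The 198 other genes with a mean of 500 TPM or more had a median of 0.05, and in 26.3% of them the groups stood apart with Qk_KO lower. The part of length or abundance in the values of ribosomal protein genes was not tested. Within the 81 genes, Pearson's r of the log2 fold change was 0.25 with GC content, -0.04 with log2 length and -0.09 with log2 mean TPM. These genes share libraries, so no p is given. The genes lie on 19 chromosomes, with 4 genes on X. Control replicate 2 had the higher value in 70 of the 81 genes, where it did so in 6131 of all 13260 genes tested. In Qk_KO, replicate 2 had the higher value in 50 of the 81, and in 6759 of all 13260. The ribosomal genes thus also shifted mostly in 1 direction between the 2 control libraries. The typical gap between replicates, as the median absolute log2 difference, was 0.12 in Qk_KO and 0.09 in control, smaller than the median fold change.

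Components of the cytosolic ribosome with other symbols did not all follow. Fau, which carries the small subunit protein S30, stood at 1441 and 1363 TPM in Qk_KO, against 1726 and 1856 TPM in control. Rack1, a scaffold on the small subunit, overlapped at 1720 and 2075 TPM in Qk_KO, against 1913 and 2009 TPM in control. Neither was called.

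Genes that build ribosomes also had mostly negative fold changes. In a list of ribosome biogenesis factors, 4 of 98 genes tested fell (4.08%), 0 rose and 94 did not pass. Of all genes tested, 1.42% were called lower and 3.24% in either direction. An unadjusted p below 0.05 in limma was reached by 55 of the 98 genes (56.1%, where 28.3% of all genes tested did so). Of the 98 log2 fold changes 92 were below 0, with a median of -0.35, and both Qk_KO values lay below both controls in 86 (87.8%, where 27.5% of all genes tested did so). Ncl, the gene of nucleolin, fell to 85.1 and 82.6 TPM in Qk_KO, against 127 and 147 TPM in control (log2 fold change -0.69, adjusted p = 0.0429 in limma, Benjamini-Hochberg). Sbds, which releases a factor from new large subunits, fell to 57.2 and 58.8 TPM in Qk_KO, against 90.3 and 96.7 TPM in control. Wdr43, of the small subunit processome, and Mrto4, of large subunit assembly, were the other genes that fell. All 4 of these genes kept their groups apart by more than the spread of the replicates.

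Other genes with TOP messages or roles in translation had medians nearer 0. The counts of unadjusted p below 0.05 that follow stand beside 28.3% over all genes tested. In the list of elongation factors and other TOP messages, 2 of 30 genes fell, 0 rose and 28 did not pass. The share that fell was 6.67%, where 1.42% of all genes tested did so. Of the 30 log2 fold changes 25 were below 0, with a median of -0.21, and 14 genes had an unadjusted p below 0.05 in limma. The genes that fell were the snoRNA host genes Snhg12, at 27.9 and 27.3 TPM in Qk_KO, against 45.0 and 44.6 TPM in control, and Snhg1, at 75.8 and 70.2 TPM in Qk_KO, against 115 and 105 TPM in control. Eef1a1, the elongation factor that delivers transfer RNA, stood at 7428 and 7438 TPM in Qk_KO, against 8425 and 8577 TPM in control, without a call. Of 40 initiation factor genes 0 were called, with 34 below 0 and a median of -0.22, and 16 had an unadjusted p below 0.05 in limma. Of 19 RNA polymerase I genes 0 were called, with 14 below 0 and a median of -0.19, and 4 had an unadjusted p below 0.05. Polr1a, its largest subunit, stood at 28.8 and 27.9 TPM in Qk_KO, against 37.04 and 41.01 TPM in control. In these lists too, both Qk_KO values often lay below both controls, where 27.5% of all genes tested did so. The shares were 73.3% for elongation factors and other TOP messages, 77.5% for initiation factors and 63.2% for RNA polymerase I genes.

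Upstream regulators gave no uniform picture. In the list of mTOR, LARP1 and MYC genes 0 of 27 passed (11 at an unadjusted p below 0.05 in limma), with 15 below 0 and a median of -0.06. The list mixes activators with inhibitors such as Tsc2 and Eif4ebp1, so its median has no single reading. Tsc2 stood at 59.8 and 61.5 TPM in Qk_KO, against 52.3 and 43.4 TPM in control. Eif4ebp1 stood at 125 and 101 TPM in Qk_KO, against 154 and 147 TPM in control. Myc stood at 23.4 and 36.7 TPM in Qk_KO, against 48.6 and 69.2 TPM in control (adjusted p = 0.0894 in limma, Benjamini-Hochberg). Mycn stood at 25.8 and 14.1 TPM in Qk_KO, against 14.6 and 8.20 TPM in control, and Mycl at 38.4 and 30.4 TPM in Qk_KO, against 21.6 and 15.9 TPM in control. Myc values were thus lower and Mycl values higher in both Qk_KO libraries, while those of Mycn overlapped. Mtor stood at 62.4 and 64.7 TPM in Qk_KO, against 48.3 and 47.7 TPM in control, and Larp1 at 55.3 and 62.8 TPM in Qk_KO, against 61.0 and 78.7 TPM in control.

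Other large complexes were set beside these as a description. Of 77 mitochondrial ribosomal protein genes, 1 fell (Mrps34), 0 rose and 51 had a log2 fold change below 0, with a median of -0.12. The share that fell was 1.3%, where 1.42% of all genes tested did so. Of 85 nuclear genes of oxidative phosphorylation 0 were called, 32 were below 0 and the median was 0.06, with 19 at an unadjusted p below 0.05 in limma. Of 38 proteasome genes 0 were called, 30 were below 0 and the median was -0.17, with 13 at an unadjusted p below 0.05. Both Qk_KO values lay below both controls in 45.5% of the mitochondrial ribosomal, 16.5% of the oxidative phosphorylation and 63.2% of the proteasome genes. Over all genes tested the share was 27.5%. These lists were chosen with earlier results known and carry no test of a difference from the ribosomal genes.

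**Figure D5:**
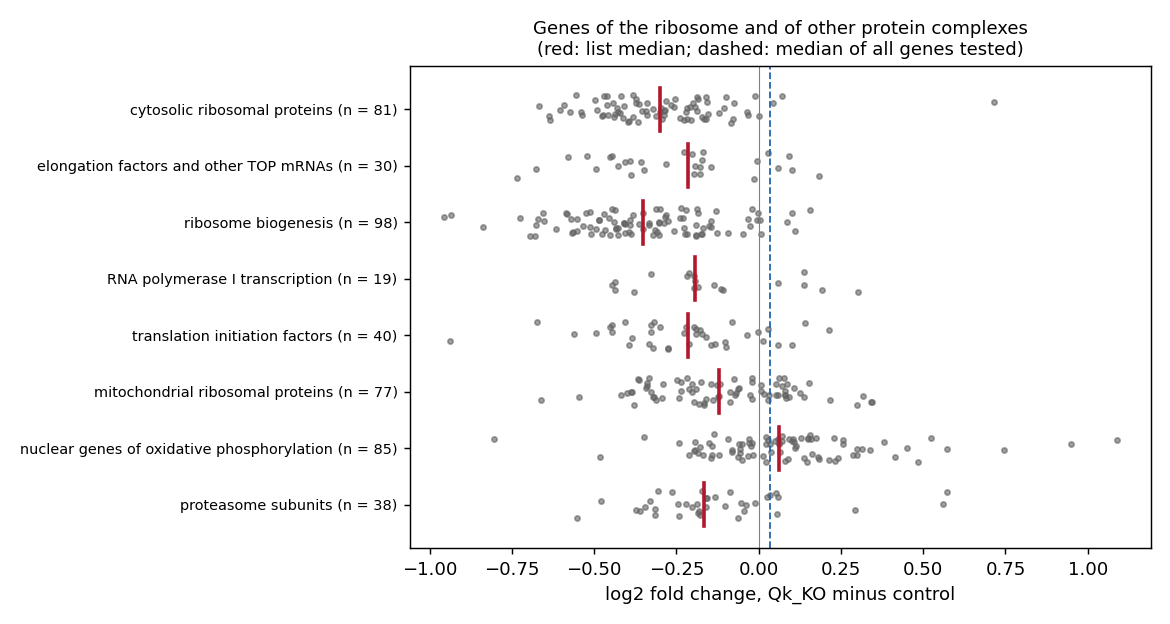
Log2 fold change (Qk_KO minus control) of each gene tested in 8 lists, with the median of each list in red and the median of all genes tested as a dashed line. The medians are -0.30 for cytosolic ribosomal proteins and -0.35 for ribosome biogenesis, and 0.06 for oxidative phosphorylation.

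Markers of cell state and of other cells were set beside these values, and where an unadjusted p is counted below, 28.3% of all genes tested were under 0.05. Calls below stand beside 1.42% of all genes tested called lower and 1.83% called higher. All 34 mitosis genes tested had log2 fold changes above 0, with a median of 0.99. In all 34 both Qk_KO values lay above both controls, where 33.6% of all genes tested did so. Of the 34, 4 were called higher (11.8%) and 32 had an unadjusted p below 0.05 in limma. The 34 genes summed to 1080 and 1030 TPM in Qk_KO, against 665 and 488 TPM in control. Of 42 genes of DNA replication and S phase 5 were below 0, with a median of 0.53, 0 called and 11 at an unadjusted p below 0.05 in limma. Of 30 p53 response genes 21 were below 0, with a median of -0.11, and Gdf15 was called lower. Of 27 genes of the ATF4 and unfolded protein response 22 were below 0, with a median of -0.24, and Hmox1 was called lower. Microglia and macrophage markers summed to 49.2 and 34.5 TPM in Qk_KO, against 97.2 and 83.9 TPM in control. All 10 of the genes tested (of 14) had log2 fold changes below 0, with a median of -0.97. In all 10 both Qk_KO values lay below both controls, where 27.5% of all genes tested did so. Of the 10, 0 were called and 9 had an unadjusted p below 0.05 in limma. P2ry12 stood at or near 0 in every library. Pericyte, fibroblast and meninges markers summed to 48.5 and 58.5 TPM in Qk_KO, against 72.0 and 74.8 TPM in control. All 5 genes tested (of 11) had log2 fold changes below 0, with 0 called and 2 at an unadjusted p below 0.05 in limma. The groups overlapped in 3 of the 5. Cspg4 stood at 11.3 and 20.5 TPM in Qk_KO, against 22.5 and 30.6 TPM in control. It is also among the oligodendrocyte lineage markers used here. Astrocyte markers summed to 865 and 761 TPM in Qk_KO, against 937 and 1011 TPM in control, a sum over genes of both directions: Aqp4 rose to 29.3 and 35.1 TPM in Qk_KO, against 3.83 and 4.88 TPM in control, while Slc1a3 (also a radial glia marker) and Slc4a4 fell and 9 of 12 did not pass. Oligodendrocyte lineage markers summed to 1046 and 1284 TPM in Qk_KO, against 1395 and 1216 TPM in control, which overlapped. Olig1 and Olig2 made up most of these sums, which therefore say little about the other markers. Pdgfra and Lhfpl3 fell and 8 of 10 tested did not pass. Of the 10 log2 fold changes 9 were below 0, with a median of -0.69. Both Qk_KO values lay below both controls in 6 of the 10 (60%, where 27.5% of all genes tested did so). Neuron markers summed to 1214 and 1272 TPM in Qk_KO, against 885 and 653 TPM in control, and Ina and Snap25 rose while 12 of 14 tested did not pass. Endothelial markers summed to 8.11 and 6.86 TPM in Qk_KO, against 6.15 and 7.35 TPM in control, which overlapped, and erythroid markers were under 2 TPM in every library. The part of these cells and states in the level of ribosomal protein genes was not tested.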

How the data were processed

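Poly(A)-selected RNA was read on an Ion Proton instrument, per the labels' protocols. The values deposited by the authors are TPM per gene, with 1 table for each library. The submitters' processing notes name STAR 2.4.1d, RSEM 1.3.0 and the builds mm10 and GRCm38.p4. The sources used here do not give annotation, read filters or depth, and TPM keeps none.

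All 4 libraries entered 1 fit of log2(TPM + 1), pseudocount 1, for the 13260 genes averaging 1 TPM or more, with limma 3.58.1 in R 4.3.3 (mean-variance trend, two-sided, 5.57 degrees of freedom) and Benjamini-Hochberg adjustment over all genes tested, threshold 0.05. The fit was tested on simulated data. Because of the pseudocount, folds of low genes are understated. The genes and lists were chosen with earlier results of these data known. Named genes were those called, the 10 largest folds in each direction, the most and least abundant, the related pairs, Rpl5, Rpl11, Rpsa and the stalk genes, up to 4 called genes of each list (the 2 most abundant where none was called) and Qk. Some genes under this rule are not named here, among them the called mitosis genes Kif20a, Bub1b, Ccnb2 and Ccnb1. Further names, among them Rpl3, Rpl38, Rps23, Polr1a, Mycn, Mycl, Mtor and Larp1, were chosen after their values were seen. Fau, Eef1a1, Myc, Sox2, Fabp7, Vim and Tsc2 were not picked by the rule either. Copies were found with BLAST 2.17.0 (coding sequences of GENCODE M21, at least 95% identity over 60% of the sequence). Some results for single genes are not reported here. Mitochondrially encoded genes had no row in the tables. Figures used matplotlib 3.10.9 in Python 3.11.15.
Results were recomputed with pseudocounts 0.1 and 0.5, without the filter, with a minimum of 5 TPM, with other scalings, limma without trend or robust, pseudogene copies added, a replicate block and each library left out.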

Additional observations from a re-analysis of the deposited data

How the results depend on the processing

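The log2 ratio of the summed ribosomal protein level ran from -0.33 to -0.23 under the alternatives computed for it, beside -0.28. Leaving out a library could not turn its direction, because both Qk_KO sums lay below both control sums. The sum was not computed with quantile normalization. Under the alternatives computed for it, its direction held. The count of genes called did not: it was 3 of 81 (3.24% of all genes tested were called), and became 0 with no filter (0 of all genes, with 30 of these genes at an unadjusted p below 0.05 in limma), 0 without a trend in limma (0.309% of all genes, 39 at that p), 6 with a minimum mean of 5 TPM (7.41%, against 6.00% of all genes), and between 0 and 1 when 1 library was left out (0.0302% to 1.12% of all genes). The 1 call without Qk_KO replicate 1 was Rpl34, whose copy is listed high in the other Qk_KO library. Rpl22, Rpl36 and Rps4l did not pass with any library left out, in fits where 1 group is a single library assumed to vary like the other. With the replicate number as a block 17 genes were called (16 lower, 1 higher, 21% of the 81, against 9.64% of all genes), but the labels tie same-numbered libraries to nothing shared, and their deviations correlated at 0.11, so this pairing rests on a number alone. Chosen after seeing the data, removing a trend on transcript length gave 5 calls (6.17%, against 6.13% of all genes), and rescaling each library to its ribosomal protein total gave 1 call, Rps4l, against 17.6% of all genes. That rescaling moved the median of all genes to 0.29 and left 47 of 81 genes below 0. Rescaling outside mitochondrially encoded genes was not run, since none had a row.

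Sign changes, as log2 fold changes, were found in genes not called in the main analysis. Median-ratio scaling gave -0.031 for Rpl41. Quantile normalization gave 0.0133 for Rpl18, 0.0079 for Rpl11, 0.042 for Rps9, 0.16 for Rps12 and 0.13 for Rack1. Rescaling outside the ribosomal protein genes gave -0.0455 for Rpl41 and -0.0047 for Rps29. Adding -ps symbols or near-identical copies gave 0.17 for Rpl34. Removing a GC trend, also chosen after seeing the data, gave -0.081 for Rpl41, -0.036 for Rplp0 and 0.0094 for Rpl22l1. With 1 library left out, Rps9 ran from -0.081 to 0.0129, Rps12 from -0.098 to 0.035, Rpl18 from -0.042 to 0.018, Rpl41 from -0.062 to 0.0655, Rps29 from -0.0111 to 0.096 and Rplp0 from -0.0298 to 0.17. Rpl34 ran from -1.12 to 0.12, Rack1 from -0.19 to 0.082, Psmb3 from -0.13 to 0.0405 and the endothelial gene Flt1 from -0.36 to 0.0625. With 2 libraries a group and no read depth, small differences in single genes were not detectable.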
